A study of Rattus norvegicus with 18 samples.

Results

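The cell cycle and DNA replication genes of the rat femur were followed through 6 weeks of fracture healing. They were chosen by name alone, from probe sets with 1 gene symbol on an Affymetrix rat array. A gene was taken if its symbol began with Ccna, Ccnb, Ccnd, Ccne, Ccng, Ccnh, Cdc, Cdk, Mcm, E2f, Rrm, Pola, Pold, Pole, Rfc or Orc followed by a digit, or was Pcna or Top2a. This gave 43 of 4736 genes, read by 80 of 8740 probe sets. Each gene was represented by its brightest probe set, and 23 of the 43 genes had more than 1. The rule itself uses no measured change, but it was set with earlier results of these data known. On 37 genes the signal was never below 20, the floor set before taking log2. The other 6 were below it on 15 arrays (Cdc25a), 14 (Cdc7), 12 (Pola1), 8 (Cdk2) and 1 each (Cdk18 and Mcm3ap).

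The arrays measured mRNA in the middle part of the femur. The animals were young (6 weeks old at fracture), adult (26 weeks) or older (52 weeks) females of the Sprague-Dawley strain. Femora were taken with no fracture, from sham controls called intact here, or at 3 days and 1, 2, 4 and 6 weeks after a closed mid-shaft fracture held by an intramedullary rod. There was 1 array for each age and time, 18 in all, and each read RNA pooled from 2 rats. The 3 ages therefore stood in as replicates of a time, and the p-values measure the spread between these arrays.

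Cyclins are the regulatory subunits that switch on cyclin-dependent kinases (Cdks), and these kinases drive a cell from rest through DNA synthesis and mitosis. The Mcm proteins form the helicase that opens DNA at replication origins, after which Rfc loads the sliding clamp Pcna and the DNA polymerases copy both strands. In bone marrow, precursors of blood cells divide continually, whereas in a healing fracture mesenchymal cells and then chondrocytes divide in the callus. The tissue was a mixture of callus, cortical bone and marrow, so that fewer dividing cells and less of a transcript in each cell cannot be told apart.

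The name rule also took in genes that act outside the division cycle. Cdc42 is a small GTPase of the cytoskeleton, with its effectors Cdc42bpa, Cdc42bpb and Cdc42ep3. Cdc37 is a partner of the chaperone Hsp90, Cdc5l is a splicing factor, Cdc123 helps to assemble a translation initiation factor, and Cdk5 with its activator Cdk5r1 acts mainly in neurons. They were kept in every count.

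Signal is in arbitrary units, with every array scaled to the same trimmed mean, so a value gives a gene's part of the signal on its array. Trimmed means lay between 500.7 and 500.8 and medians between 131.9 and 164.1, and 12.2% to 20.1% of probe sets per array were below the floor. The ratio of 3' to 5' signal of the actin control, which reflects RNA quality, moved with fracture. Intact arrays had ratios of 2.1 to 2.61, whereas every array from 3 days to 4 weeks lay below them, between 1.48 and 1.9. At 6 weeks it was 2.72, 2.27 and 1.89 on the young, adult and older arrays. Its part in the changes below was not tested, beyond a fit that holds it as a covariate. Differences are log2 changes from a limma fit of time and age over all 18 arrays, given ± SE, and a gene was called at a Benjamini-Hochberg adjusted p below 0.05 over all 8740 probe sets.

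After fracture the mRNA of much of the replication machinery and of several cyclins was lower than in intact femora. At 1 and 2 weeks cyclin D1 and its kinase partner Cdk4 were above their intact level. At 1 week 17 of the 43 genes were lower than in intact femora (19.6% of all genes were) and 6 were higher (18.4% of all genes). The share lower was 39.5%, and the median log2 change was -0.39 against -0.07 over all genes. Of the 17 genes, 10 had their lowest level at 1 week, 6 at 2 weeks and 1 (Ccnd2) at 6 weeks. Without the adult arrays 11 genes were called, and without the older arrays 11. With the actin ratio, which was 1.66 to 1.76 on the 1-week arrays, as a covariate 9 were called, 7 lower and 2 higher.

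At 3 days 8 genes were lower (21.9% of all genes) and 6 higher (20%), so these shares were near the background. The balance at 3 days was not stable. A floor of 100 gave 6 lower and 7 higher, 9 genes were called without the adult arrays (3 lower) and 6 without the older arrays (2 lower). At 2 weeks 15 were lower (18.3% of all genes) and 5 higher (16.2%), with 8 called without the adult arrays and 5 without the older arrays. At 4 weeks 12 were lower (11%) and 2 higher (12.3%), and 0 were called when either the adult or the older arrays were left out. At 6 weeks 8 were lower (8.78%) and 3 higher (8.74%). That count was 19 without the young arrays, 1 without the adult arrays and 1 without the older arrays.

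Across the 5 times, 19 genes were lower at 1 or more of them, 7 were higher at 1 or more, none was called in both directions and 17 were called at no time. These counts are of the brightest probe set of a gene. Where another probe set of it was called in the opposite direction, this is given with the gene. Uncalled probe sets could also differ in sign. A dimmer Ccnd3 probe set gave a log2 change of 1.04 at 1 week (adjusted p = 0.18). For Cdc42, another probe set gave 0.16 at 4 weeks (adjusted p = 0.74). Ccnd3, Ccne1 and Rfc4 were lower at all 5 times. Cdk7 was the 1 gene that was higher at all 5. How many of all genes show these patterns over the 5 times was not counted, so no background stands beside them.

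**Figure D1:**
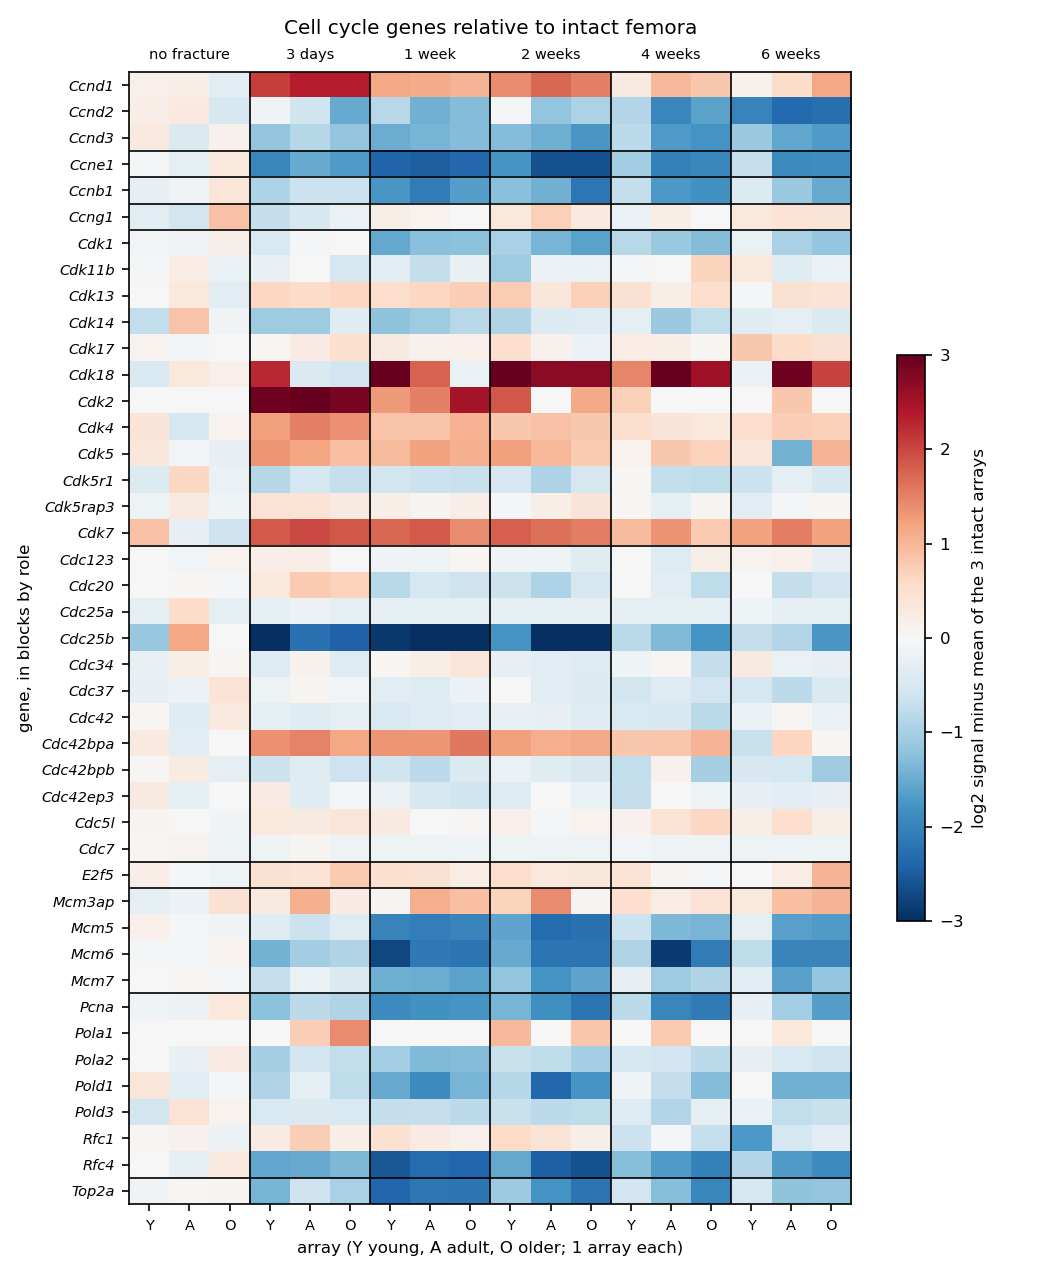
Each row is 1 of the 43 genes, in blocks by role, and each column is 1 array. Colour is the log2 signal (floor 20) minus the mean of the 3 intact arrays, cut at 3 either way. Blue blocks at Ccne1, Mcm5 to Mcm7, Pcna, Rfc4 and Top2a are mostly darkest at 1 or 2 weeks, and Ccnd1, Cdk4 and Cdk7 are red. On the adult arrays Mcm6 and Pcna are lowest at 4 weeks.

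The 3 D-type cyclins, which bind Cdk4 and Cdk6 and respond to growth signals, did not move together. For Ccnd1 the signal was 469.3, 477.5 and 334.4 in the young, adult and older intact femora, and 1775.7, 2158.7 and 2172.3 at 3 days. At 1 week it was 948.6, 919.1 and 860.2, and at 2 weeks 1126.3, 1392.3 and 1207.5. All 9 of these fractured arrays stood above all 3 intact arrays, and the 3-day arrays were the highest. The rise was 4.81-fold at 3 days (log2 2.27 ± 0.23, adjusted p = 3.8e-05), 2.16-fold at 1 week (adjusted p = 0.0034) and 2.93-fold at 2 weeks (adjusted p = 0.00067). By 6 weeks the young array (463.6) was back in the intact range and the older array (949.3) was not, and the time was not called (log2 0.62 ± 0.23, adjusted p = 0.09). The call at 1 week was lost without the adult arrays (log2 1.19, adjusted p = 0.079). Of the 4 other Ccnd1 probe sets, 2 rose at 3 days by 2.07 and 2.05 on the log2 scale, 1 was lower (log2 -0.64, adjusted p = 0.0098) and 1 was not called. The brighter of the pair that rose was still higher at 6 weeks (log2 1.17, adjusted p = 0.0068).

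Ccnd3 fell in the same arrays. Its signal was 5700.5, 3453.9 and 5046.4 in intact femora and 1658.2, 1752.8 and 1893.6 at 1 week, and at 6 weeks it was still 2155.9, 1584 and 1420.8. No fractured array reached the lowest intact array at these times. The log2 change was -1.39 ± 0.23 at 1 week (adjusted p = 0.0011) and -1.45 ± 0.23 at 6 weeks (adjusted p = 0.0032). Ccnd2 took the longest course. It stood at 1380 ± 366 in intact femora (mean ± SD, n = 3), at 599 ± 140 at 1 week (adjusted p = 0.0049, and 0.071 without the adult arrays) and at 294 ± 38.4 at 6 weeks, its lowest level, where it was 4.6-fold lower (adjusted p = 0.00086). A dimmer Ccnd2 probe set went the other way at 3 days (log2 1.18, adjusted p = 0.0086), 1 week (log2 0.9, adjusted p = 0.035) and 2 weeks (log2 0.94, adjusted p = 0.031), so the early course of this gene is uncertain.

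Among the kinases, Cdk4 and Cdk7 were higher at 1 week while Cdk1 was lower. Cdk4, the partner of the D-type cyclins, was 1355.9, 729.4 and 1122.4 in intact femora and 2445.9, 2971.4 and 2689.1 at 3 days. Its lowest 3-day array was above its highest intact array. It was 2.6-fold higher at 3 days (log2 1.38 ± 0.18, adjusted p = 0.00017), 1.88-fold at 1 week (adjusted p = 0.0026, and 0.079 without the older arrays), 1.78-fold at 2 weeks and 1.59-fold at 6 weeks. Cdk7, the kinase that activates other Cdks and is part of the transcription factor TFIIH, was 133.7, 61.3 and 47 in intact femora and 238.4, 260.7 and 194.5 at 1 week. All 3 ages were higher than intact, by 3.15-fold in the fit (log2 1.66 ± 0.27, adjusted p = 0.00099). The call was lost without the adult arrays (log2 1.44, adjusted p = 0.065) and without the older arrays (log2 1.46, adjusted p = 0.056).

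Cdk2, which works with cyclins E and A as DNA synthesis starts, was dim. Its intact signals were 7.2, 18.7 and 14, all below the floor, against 150, 238.1 and 144.7 at 3 days and 48.2, 57 and 112.7 at 1 week. At 4 weeks the adult and older arrays (5.2 and 8.9) were below the floor again. The fitted log2 change was 3.11 ± 0.47 at 3 days (adjusted p = 0.00045) and 1.76 ± 0.47 at 1 week (adjusted p = 0.014), and both depend on the floor, since no intact value was above it. With a floor of 100 the 1-week change was 0.06. The call at 1 week was also lost without the adult arrays (adjusted p = 0.053) and without the older arrays (adjusted p = 0.19). The second Cdk2 probe set was below the floor on all 18 arrays.

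Cdk1 is the kinase of mitosis. Its signal was 786.4, 773.4 and 932.2 in intact femora and 600.8, 792.5 and 827.4 at 3 days, and the 2 groups overlapped (log2 -0.18 ± 0.24, adjusted p = 0.63). At 1 week it was 286.8, 347.3 and 353, below every intact and 3-day array. It was then 2.53-fold lower than intact (adjusted p = 0.0018, and 0.064 without the adult arrays), and it was also called at 2 weeks (log2 -1.33) and 4 weeks (log2 -1.08) but not at 6 weeks (log2 -0.77, adjusted p = 0.054).

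Of the remaining Cdk genes, Cdk13, a kinase of transcription and splicing, was 1.54-fold higher at 1 week (adjusted p = 0.023, and 0.09 without the young and 0.27 without the older arrays). Cdk14 was 2.04-fold lower (adjusted p = 0.043), a call lost when any of the ages was left out (adjusted p = 0.051 to 0.27), and Cdk17 was 1.52-fold higher at 6 weeks alone (adjusted p = 0.02). Cdk18 had the second highest log2 change at 1 week without being called (1.67 ± 1.03, adjusted p = 0.23). Its 1-week arrays were 321.2, 101.2 and 25.6 against 21.5, 36.8 and 32.7 in intact femora, so the older array lay within the intact range. At 2 weeks they were 280.3, 193.6 and 192.9, all above intact (log2 2.89 ± 1.03, adjusted p = 0.052). The authors reported that the array software scored this transcript Absent on every array of their study, which limits these values. They also listed it and Cdk17 among the genes with a greater rise after fracture in younger rats. Neither gene was called in the age comparisons made here. Cdk5, Cdk5r1, Cdk5rap3 and Cdk11b were called at no time, although a dimmer Cdk5rap3 probe set was higher at 3 days (log2 0.96, adjusted p = 0.014) and 1 week (log2 0.78, adjusted p = 0.04).

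**Figure D2:**
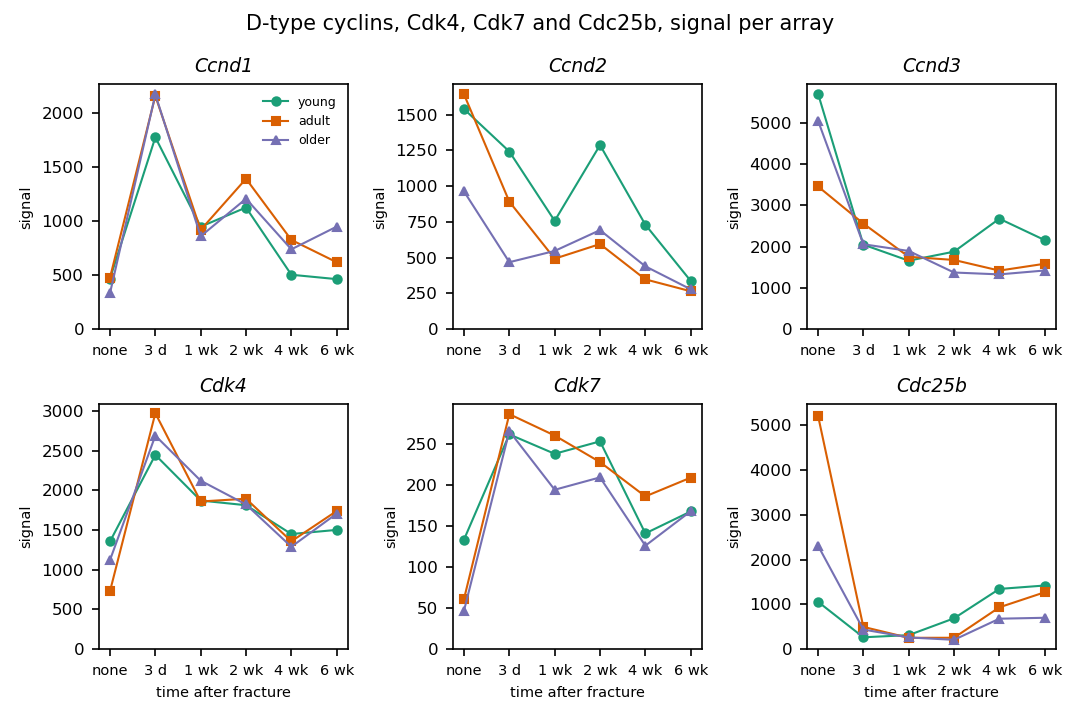
Signal in arbitrary units (vertical axis, from 0) against time after fracture (horizontal axis, not to scale), 1 array per point, for the D-type cyclins, Cdk4, Cdk7 and Cdc25b. Ccnd1 and Cdk4 peak at 3 days at all 3 ages, while Ccnd3 and Cdc25b are below every intact array at 1 week.

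Ccne1, the cyclin that turns on Cdk2 before DNA synthesis, was among the genes with the largest fall. Intact femora gave 1088.7, 904.7 and 1377.3, and the 1-week arrays 210.6, 198.4 and 215.5, so that the 1-week arrays differed little among the ages and lay far below intact. The log2 change was -2.41 ± 0.31 (5.32-fold lower, adjusted p = 0.00026), and it passed under all 12 alternative settings run at 1 week. Ccnb1, the partner of Cdk1 in mitosis, was 911 ± 216 in intact femora (mean ± SD, n = 3) and 253 ± 38 at 1 week, 3.57-fold lower (adjusted p = 0.0017). At 3 days it was 536 ± 55.5 (log2 -0.74 ± 0.33, adjusted p = 0.097). The call at 1 week was lost without the adult arrays (log2 -1.77, adjusted p = 0.074). Ccng1, a target of p53, was called at no time, and its 3 intact arrays were far apart, at 3177.9, 2768.1 and 7406.1.

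Cdc25b, the phosphatase that removes the inhibitory phosphates from Cdk1, had the lowest log2 change at 1 week. Its intact arrays were 1057.9, 5220.6 and 2314, and its 1-week arrays 312, 251.9 and 260.2. The groups did not overlap, but the intact arrays spread widely and the adult array was the highest. The log2 change was -3.1 ± 0.56 (8.55-fold lower, adjusted p = 0.0019). It was not called without the adult arrays (log2 -2.46, adjusted p = 0.079) or without the older arrays (log2 -3.07, adjusted p = 0.064). A dimmer Cdc25b probe set gave 0.46 (adjusted p = 0.66).

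Cdc20, the activator of the anaphase-promoting complex, was 591.8, 831.5 and 769 at 3 days, above all intact arrays (484.5, 492.2 and 461.2), but was not called there (log2 0.59 ± 0.22, adjusted p = 0.056). At 1 week it was 267.6, 331.8 and 312.3, below all of them (log2 -0.66 ± 0.22, adjusted p = 0.04, and 0.07 to 0.18 when any of the ages was left out). Cdc25a and Cdc7 were at or near the floor and gave no call. Cdc42bpa, a kinase of the cytoskeleton, was 2.65-fold higher at 1 week (145.5, 94.7 and 119.4 intact against 297, 293.7 and 351; adjusted p = 0.0026, and 0.089 without the older arrays). Its groups did not overlap. Cdc42 was 1.5-fold lower at 4 weeks alone (adjusted p = 0.021). Cdc37 was 1.5-fold lower at 6 weeks alone (adjusted p = 0.038), while its second, dimmer probe set was higher at 3 days (log2 1.66, adjusted p = 0.001), 1 week (log2 1.17) and 2 weeks (log2 1.24). By their brightest probe sets Cdc34, Cdc123, Cdc5l, Cdc42bpb and Cdc42ep3 were called at no time, nor was E2f5, a transcription factor of the family that regulates S-phase genes. A dimmer Cdc123 probe set was higher at all 5 times (log2 1.31 at 3 days, adjusted p = 4.6e-05, and 0.51 to 0.67 later, adjusted p = 0.0076 to 0.013). A dimmer Cdc34 probe set was lower at 3 days (log2 -0.78, adjusted p = 0.0031), 1 week (log2 -0.7) and 2 weeks (log2 -0.49). The course of these genes is therefore uncertain.

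The 3 helicase genes Mcm5, Mcm6 and Mcm7 fell together at 1 week. Mcm6 was 3094, 3096.9 and 3494.6 in intact femora, 1197.1, 1572.3 and 1710.6 at 3 days and 486.9, 727.4 and 702.6 at 1 week. At both times all 3 ages were below every intact array. It was 5.12-fold lower at 1 week (log2 -2.36 ± 0.42, adjusted p = 0.0017, and adjusted p = 0.061 without the older arrays). Mcm5 stood at 634 ± 63.6 in intact femora, 461 ± 50.6 at 3 days, 156 ± 4.67 at 1 week and 158 ± 46.3 at 2 weeks (mean ± SD, n = 3 each). It was not called at 3 days (log2 -0.46 ± 0.24, adjusted p = 0.15) and was 4.06-fold lower at 1 week (adjusted p = 0.00017), a call that passed under all 12 alternatives. Mcm7 was 2.85-fold lower at 1 week (1250 ± 45.8 against 440 ± 23.1; adjusted p = 0.0013, and 0.068 without the older arrays). Mcm3ap, named for its contact with Mcm3 and no helicase subunit, had signals of 11.1 to 65.1 and was called at no time.

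Promoter sequence was set beside these falls for the 4 genes with the lowest 1-week change whose window held an E2F site or a CHR element, letters through which cell cycle genes are known to be regulated. Windows ran from 250 bases before to 50 after the RefSeq start (assembly GRCr8), the first window listed was taken for a gene, and 37 of the 43 genes had one. The E2F letters searched were TTTCCCGC, TTTCGCGC, TTTGCCGC and TTTGGCGC, and the CHR letters were TTTGAA, all on both strands. Each line gives the 140 bases just before the start, 5′ to 3′ on the gene's strand, with matches in capitals. They lie at chr19:13488673-13488812 (plus strand) for Mcm5, chr13:42404353-42404492 (minus) for Mcm6, chr12:22163179-22163318 (minus) for Mcm7 and chr10:84473094-84473233 (minus) for Top2a.
Mcm5: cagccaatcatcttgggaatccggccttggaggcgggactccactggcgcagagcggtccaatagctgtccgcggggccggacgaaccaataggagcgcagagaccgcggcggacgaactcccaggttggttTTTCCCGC
Mcm6: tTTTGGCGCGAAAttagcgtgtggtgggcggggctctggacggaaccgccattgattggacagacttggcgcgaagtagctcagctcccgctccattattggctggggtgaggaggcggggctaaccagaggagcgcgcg
Mcm7: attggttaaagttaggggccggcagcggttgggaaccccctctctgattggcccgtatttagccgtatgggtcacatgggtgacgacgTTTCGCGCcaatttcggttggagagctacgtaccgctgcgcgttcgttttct
Top2a: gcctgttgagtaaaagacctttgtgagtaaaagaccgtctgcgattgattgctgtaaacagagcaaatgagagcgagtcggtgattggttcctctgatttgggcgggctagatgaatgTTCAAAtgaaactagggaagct

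The capitals in Mcm6 are 2 overlapping E2F matches, 1 on each strand. Those in Mcm5 and Mcm7 are E2F matches, and those in Top2a are a CHR match on the opposite strand. An E2F match was in 8 of the 37 windows (21.6%), against 2.25% of the windows of all 27457 genes, and in 5 of the 16 windows of genes that were lower at 1 week. A CHR match was in 5 of 37 (13.5%), against 18.1% of all. The CCAAT box (CCAAT, both strands) was in 19 of 37 (51.4%), against 37.7% of all. A match is a run of letters and was not tested as a binding site.

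By their brightest probe sets, Pcna and the clamp loader subunit Rfc4 were already lower at 3 days. Pcna was 5518.5, 5364.4 and 7499.7 in intact femora, 2584.3, 3524.7 and 3247.3 at 3 days and 1607.9, 1705.4 and 1781.5 at 1 week. The 3 groups did not overlap. The log2 change was -0.97 ± 0.35 at 3 days (adjusted p = 0.048) and -1.84 ± 0.35 at 1 week (3.57-fold lower, adjusted p = 0.0024, and adjusted p = 0.074 without the adult arrays). A dimmer Pcna probe set was not called at 3 days (log2 -0.47, adjusted p = 0.37) and was lower at 1 week (log2 -1.62, adjusted p = 0.008). Rfc4 was 1232.6, 1006.4 and 1507.2 in intact femora, 415, 429.3 and 485.6 at 3 days and 207.2, 246.9 and 236.2 at 1 week. Again no array of one time overlapped with another. It was 2.79-fold lower at 3 days (adjusted p = 0.0019) and 5.37-fold lower at 1 week (log2 -2.42 ± 0.28, adjusted p = 0.00016), and 2 other Rfc4 probe sets were also lower at both times. Rfc1, the large subunit, was not called (log2 0.28 ± 0.3 at 1 week, adjusted p = 0.52), while its dimmest probe set, below the floor on 5 arrays, was lower at 1 week (log2 -1.43, adjusted p = 0.033).

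Of the polymerase genes, Pold1, the catalytic subunit of polymerase delta, was 462 ± 109 in intact femora and 151 ± 27.4 at 1 week (mean ± SD, n = 3 each), 3.05-fold lower (adjusted p = 0.006, and 0.067 without the adult arrays and 0.071 without the older arrays). Pold3, an accessory subunit, was 1.66-fold lower (adjusted p = 0.031, and 0.2 without the adult and 0.25 without the older arrays), and 2 dimmer Pold3 probe sets gave larger falls (log2 -1.63 and -2.07). Pola2, the second subunit of polymerase alpha, was 2.33-fold lower at 1 week (adjusted p = 0.00031) and was already lower at 3 days (log2 -0.78 ± 0.16, adjusted p = 0.003). Pola1, its catalytic subunit, was below the floor on 12 arrays and was not called.

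Top2a, the topoisomerase that untangles replicated chromosomes, was 3856, 4257.2 and 4386.2 in intact femora, 1593.2, 2683.4 and 2104.9 at 3 days and 799.2, 924 and 912.5 at 1 week. Every 1-week array was below every 3-day array, and those were below every intact array. It was 2-fold lower at 3 days (adjusted p = 0.031) and 4.75-fold lower at 1 week (log2 -2.25 ± 0.33, adjusted p = 0.00053), and the latter passed under all 12 alternatives. Those alternatives all used this brightest probe set. A much dimmer Top2a probe set was higher at 3 days (log2 2.25, adjusted p = 0.0083) and was not called at 1 week (log2 1.09, adjusted p = 0.16). Another was called at no time (log2 -0.67 at 1 week, adjusted p = 0.087).

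**Figure D3:**
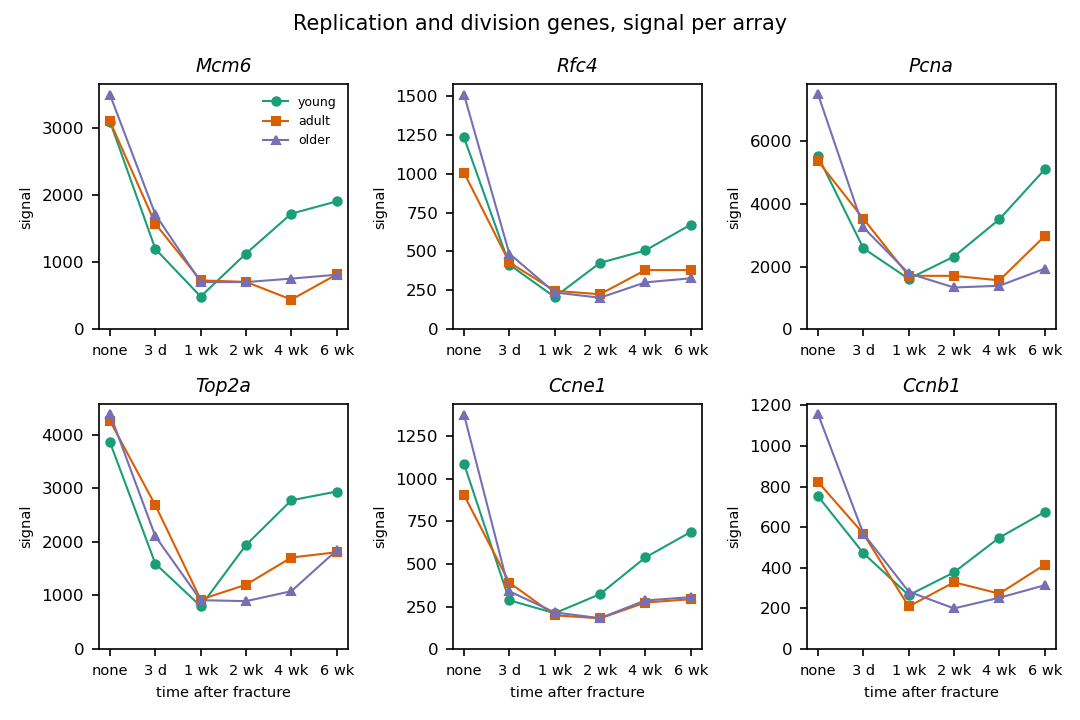
Signal in arbitrary units (vertical axis, from 0) against time after fracture (horizontal axis, not to scale), 1 array per point, for 6 genes of replication and division. At 1 week the 3 ages lie close together and below every intact array, and from 2 weeks the young arrays are the highest.

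The step from 3 days to 1 week was compared directly. Here 5 genes were lower at 1 week (1.67% of all genes) and 0 were higher (2.3% of all genes; limma, 0 also at an unadjusted p below 0.05). They were Mcm5 (2.95-fold, adjusted p = 0.0053), Cdc20 (2.39-fold, adjusted p = 0.011), Cdk1 (2.24-fold, adjusted p = 0.025), Ccnd1 (2.23-fold, adjusted p = 0.018) and Mcm7 (2.1-fold, adjusted p = 0.049). At an unadjusted p below 0.05, 15 were lower, and the share of all genes at that threshold was not counted. The median was -0.26 against 0 over all genes. No gene was called without the adult or without the older arrays.

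**Figure D4:**
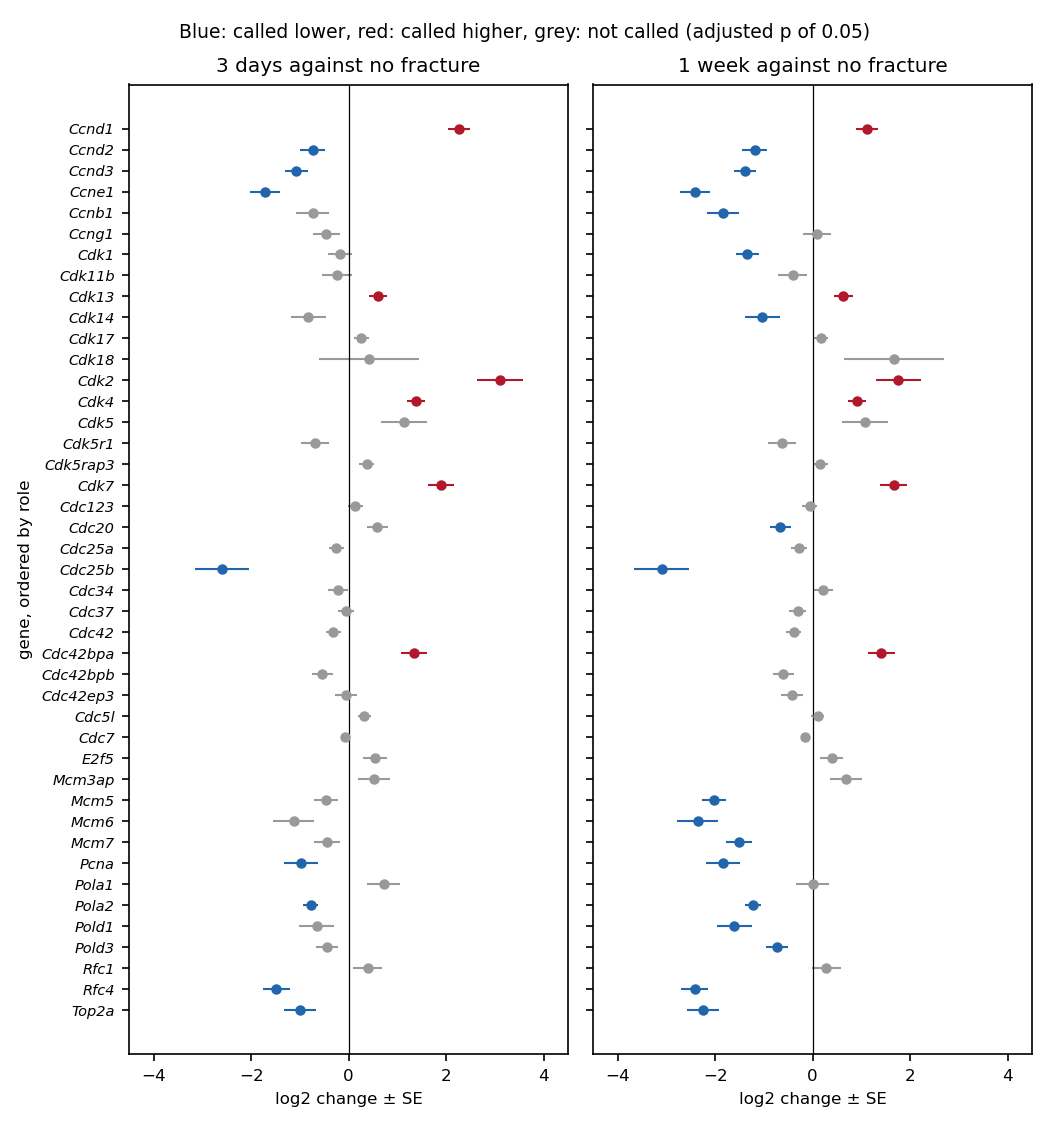
Log2 change ± SE against intact femora (horizontal axis) for each of the 43 genes (vertical axis, by role) at 3 days and at 1 week, from the fit to 18 arrays. At 3 days 8 genes are called lower and 6 higher, and at 1 week 17 lower and 6 higher.

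The comparison of 6 weeks with 1 and 2 weeks asked how far levels went back. Higher at 6 weeks were 5 genes (5.93% of all genes), namely Cdc25b (3.6-fold), Top2a (2.02-fold), Mcm5 (1.77-fold), Pola2 (1.49-fold) and Cdk17 (1.36-fold), with adjusted p from 0.023 to 0.048. Lower were 4 (5.68% of all genes), namely Cdc42bpa (2.41-fold), Ccnd2 (2.36-fold), Rfc1 (2.28-fold) and Ccnd1 (1.63-fold), with adjusted p from 0.0057 to 0.041. Mcm5, at 306 ± 184, stayed 2.31-fold below intact (adjusted p = 0.0082) at 6 weeks, whereas Top2a was no longer called (log2 -0.96 ± 0.33, adjusted p = 0.071). The count of 9 was 3 without the young arrays, 1 without the adult arrays and 1 without the older arrays.

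From 2 weeks on, the young rats had higher signals than the others for most genes that had fallen. The 17 genes lower at 1 week, chosen by that contrast, are described without a test. At 1 week the older array was below the young one for 5 of the 17 (44% of all genes), and the median difference was 0.13 on the log2 scale. At 2 weeks it was below for 15 (47.4%), at 4 weeks for 16 (50.9%) and at 6 weeks for all 17 (47.5%), with median differences of -0.68, -0.76 and -0.95. In intact femora it was below for 6 of 17 (52.3%). The young array also had the highest actin ratio at 4 weeks (1.9, against 1.71 on the adult and 1.79 on the older array) and at 6 weeks (2.72, against 2.27 and 1.89), and its part in these differences was not tested. Against intact femora of the same age, the median of the 17 at 6 weeks was -0.35 in the young, -1.19 in the adult and -1.61 in the older rats.

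Pcna shows the course. At 6 weeks its signal was 5097.6 on the young, 2971.9 on the adult and 1932.2 on the older array, and at 4 weeks 3509.1, 1560.3 and 1386.9. The young array was the highest at both times and at 6 weeks lay just below the intact range. Mcm6 was 1905.2, 816.2 and 812.5 at 6 weeks, Ccne1 was 687.5, 292.9 and 304.9, and Mcm5 was 518.6, 204.4 and 194.3. In each of these the adult and older arrays were close together and the young array was above both. Ccnd1 went the other way, at 463.6, 620 and 949.3.

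With age nested in the phase of healing, 0 of the 43 genes passed for older against young rats at 4 and 6 weeks (1.29% of all genes did; limma, lowest adjusted p = 0.074, for Pcna with a log2 difference of -1.37 ± 0.24). At an unadjusted p below 0.05, 15 genes were lower in older rats and 1 was higher. The share of all genes at that unadjusted threshold was not counted, here or in the other age comparisons. The nested fit left 4 residual degrees of freedom. The result depended on the setting, since 9 of the 31 genes that remained were called when probe sets with a mean signal under 200 were left out (10.2% of all genes that remained). These were Ccnb1, Ccnd3, Ccne1, Mcm5, Mcm6, Mcm7, Pcna and Pold1, lower in older rats, and Ccnd1, higher. Over all 6 times together, 0 genes differed between older and young rats (0.549% of all genes) and 0 between adult and young rats (0.0845%), with 3 and 4 genes lower and 0 higher at an unadjusted p below 0.05 in limma. Ccnd2, lower in older rats by 0.74 on the log2 scale (adjusted p = 0.11), was called with the same filter (adjusted p = 0.039; 2.78% of all genes that remained).

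In the response to fracture as a whole, older and young rats differed for 1 gene, Cdk7 (2.89% of all genes; log2 1.37 ± 0.23, adjusted p = 0.014). Its young intact array (133.7) was above the adult and older intact arrays (61.3 and 47), while at 3 days the 3 ages were close together (262.1, 286.8 and 266). The rise from intact to 3 days was thus 0.97 on the log2 scale for the young, 2.23 for the adult and 2.5 for the older rats. The difference rests on 1 intact array per age, and it was not called with median centring, a floor of 100 or log2(signal + 50).

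Other genes of the same pathway came from a list of 25 outside the name rule, chosen with earlier results of these data known. At 1 week 15 of 25 were lower (19.6% of all genes) and 1 was higher (18.4%). The median log2 change was -1.08, against -0.07 over all genes. At 3 days 11 were lower (21.9% of all genes) and 2 higher (20%). At 6 weeks 10 were lower (8.78%) and 0 higher (8.74%), with 1 higher at an unadjusted p below 0.05 in limma. The lowest at 1 week were Dut, which keeps uracil out of DNA (7.38-fold lower, adjusted p = 8.6e-05), securin (Pttg1, 6.94-fold, adjusted p = 0.00015), the chromatin protein Hmgb2 (5.79-fold, adjusted p = 0.0064), the flap nuclease Fen1 (5.13-fold, adjusted p = 0.00071) and thymidylate synthase (Tyms, 3.85-fold, adjusted p = 0.00043). Myc, a transcription factor of growth, was the 1 that was higher (2.14-fold at 3 days, adjusted p = 0.00033, and 1.59-fold at 1 week, adjusted p = 0.0069).

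Of 10 inhibitors and arrest genes, 1 was higher at 1 week (18.4% of all genes were) and 1 was lower (19.6% of all genes). The 1 that was higher was Cdkn1a, which encodes the Cdk inhibitor p21, at 4.27-fold (log2 2.1 ± 0.36, adjusted p = 0.0014). It was also higher at 3 days (4.17-fold) and 2 weeks (2.34-fold) but not at 4 or 6 weeks. Btg1, an antiproliferative gene, was 1.45-fold lower at 1 week (adjusted p = 0.005). Rb1, the retinoblastoma gene, was lower at 3 days (log2 -0.88, adjusted p = 0.029) and 2 weeks, as was Btg1. Cdkn2b was lower at 3 days (log2 -1.19, adjusted p = 0.0045) and Gadd45a at 2 weeks (log2 -0.86, adjusted p = 0.023). Cdkn1b, below the floor on 11 arrays, was lower at 2, 4 and 6 weeks (adjusted p = 0.038 to 0.047).

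Markers of blood cell precursors were also lower after fracture. At 3 days the median log2 change was -3.01 for erythroid and -3.96 for neutrophil markers. For the 17 genes lower at 1 week it was -0.78 at 3 days, and 16 of them were below intact. Among the 17, Ccne1, Pcna, Pola2, Rfc4 and Top2a were called lower at 3 days, while Mcm5, Mcm6, Mcm7 and Cdk1 were not called. Of 13 erythroid markers, 12 were lower at 3 days, 11 at 1 week, 11 at 2 weeks and 5 at 4 and at 6 weeks. Their summed signal was 76432 to 149667 in intact femora and 5124 to 25395 at 1 week. Of 5 neutrophil markers, all 5 were lower from 3 days to 4 weeks and 3 at 6 weeks, with summed signals of 40241 to 52761 in intact femora and 1728 to 3774 at 1 week. All 3 B cell markers were lower at 3 days, 1 week and 2 weeks. No erythroid, neutrophil or B cell marker was below the floor at all 3 ages of any time. Cartilage markers moved the other way, with 7 of 7 higher at 1 week.

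The marker lists also differed with age. At 6 weeks the summed erythroid signal was 91544 on the young, 60155 on the adult and 44232 on the older array, and the neutrophil signal was 31254, 10474 and 5837. Cartilage markers went the opposite way, with summed signals of 2621, 9299 and 11190. Between 3 days and 1 week 0 of the 13 erythroid and 0 of the 5 neutrophil markers were called in limma. None had an unadjusted p below 0.05, and the medians were -0.04 and -0.01. Of the 43 genes, Mcm5, Mcm7, Cdk1, Cdc20 and Ccnd1 were lower over that step, and the others were not called. Over the same step 10 of 13 skeletal muscle markers were higher at 1 week, with a median of 1.63 on the log2 scale. Their summed signal was 136444 to 160463 in intact femora, 36096 to 50527 at 3 days and 86934 to 114945 at 1 week. Cartilage markers had a median of 1.31 over that step, and 1 of 7 was called. The part of marrow, muscle and cartilage content in the results above was not tested.

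**Figure D5:**
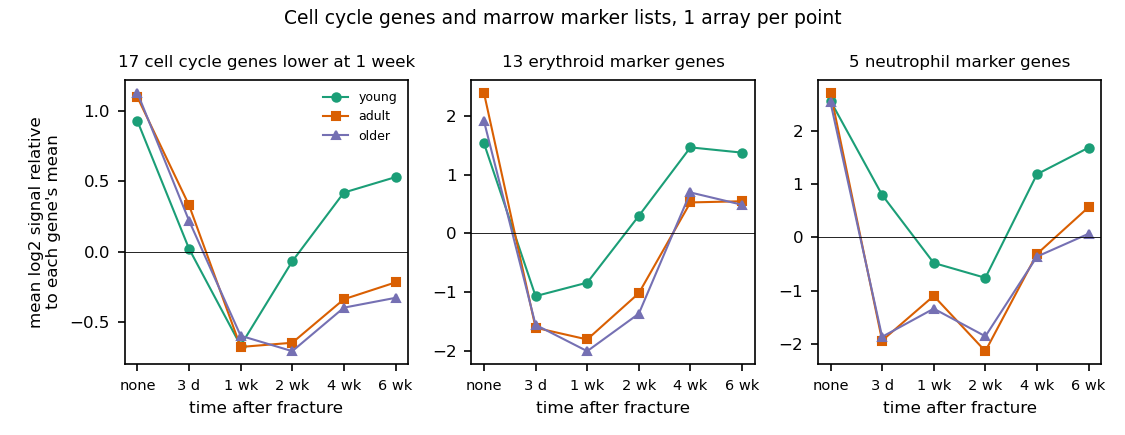
Mean log2 signal of each list relative to each gene's mean over 18 arrays (vertical axes, with a different range in each panel) against time after fracture (horizontal axis, not to scale), 1 array per point. All 3 lists are lowest between 3 days and 2 weeks, and the young array is the highest of the ages in every panel at 4 and 6 weeks. The cell cycle list was chosen for being lower at 1 week, so its low there follows from that choice.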

How the data were processed

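mRNA from 18 pools of 2 rats each (36 rats) was measured on Affymetrix rat arrays. The authors computed the deposited signal intensity of each probe set with Affymetrix Microarray Suite 5.0 and scaled each array to a target of 500. No detection calls or probe-level data were used, and 0 columns of the table were left unused. Arrays have no sequencing depth, and their number limits the precision.

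Of 8799 probe sets, 59 controls were left out. By the array's annotation 7006 probe sets had 1 symbol, 308 several and 1426 none. A floor of 20 was set and log2 taken. With limma 3.58.1 in R 4.3.3, a model of time plus age was fitted to every probe set (10 residual degrees of freedom), and with age by fracture (8) or age within phase (4) for the age questions. Age is the replicate number of each time, so the additive age term is a replicate block. The moderation used a trend with signal. Scripts were tested on simulated data. No further normalization was applied.

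The members and all lists were chosen with earlier results of these data known. Every member is named. Values on every array are given for the 5 lowest and 5 highest log2 changes at 1 week and for any member called for age, and other genes when a result turned on them. From the 2 other gene lists, up to 5 called genes each way at 1 week are named. Rb1, Cdkn1b, Cdkn2b and Gadd45a were added after their values were seen. Alternatives were a floor of 100, median centring, quantile normalization, log2(signal + 50), a filter at a mean signal of 200, no trend, each age left out, only the arrays compared, no age term, the actin ratio as a covariate, every probe set of a gene, and the test named in the methods.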

Additional observations from a re-analysis of the deposited data

Results flagged for a closer look

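Cdk7 differed between older and young rats in its response to fracture, by an interaction term in limma (log2 1.37 ± 0.23, adjusted p = 0.014). Over the alternatives that kept the call the value was 1.21 with quantile normalization (adjusted p = 0.041) and 1.37 without the signal trend (adjusted p = 0.0084). The call was lost with median centring (log2 1.18, limma adjusted p = 0.11), with a floor of 100 and with log2(signal + 50). Cdk7 was 1 of 43 genes (2.33%), against 2.89% of all genes called in this comparison, so the share was not above the background. The difference rests on 1 intact array per age. Groups of 3 arrays were too small to look for a single array standing apart.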

How the results depend on the processing

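Under the alternatives read gene by gene, all with the brightest probe set, the direction of no called gene turned at 1 week. The t-test and the count over every probe set were not read gene by gene. A dimmer Ccnd2 probe set was called in the opposite direction at 1 week (log2 0.9, limma adjusted p = 0.035). Of the single-gene values of called genes, 215 stayed called in the same direction and 58 lost the call, and 7 values of uncalled genes turned sign. These were of Ccng1 (-0.19 to 0.58 as each age was left out) and, with the actin ratio as a covariate, Cdc123 (0.22), Cdk18 (-0.72), Cdk5rap3 (-0.1), E2f5 (-0.13) and Rfc1 (-0.37). With a floor of 100 Mcm3ap, Cdc25a, Cdc7 and Pola1 came to 0. Quantile normalization and median centring moved the median of all genes by at most 0.09.

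Counts of called genes were less stable, and the cause was not tested. Leaving out each age in turn gave 6 to 16 at 3 days, 11 to 20 at 1 week, 5 to 20 at 2 weeks, 0 to 19 at 4 weeks, 1 to 19 at 6 weeks, 0 to 6 for 1 week against 3 days and 1 to 3 for 6 weeks against 1 and 2 weeks. Without the age term, that is with no replicate block, 3 days gave 13 (6 lower, 7 higher), as did the floor of 100, and the block changed the balance or the size of no other count of calls. With only the arrays compared, counts from 3 days to 6 weeks were 5, 9, 0, 0 and 0, and 0 for 1 week against 3 days. The actin covariate gave 4 (0 lower, 4 higher) at 3 days, then 9, 5 and 1 up to 4 weeks. The methods' t-test, with 0.005 as a threshold chosen here, gave 6, 13, 12, 2 and 0, and after Benjamini-Hochberg 11, 14, 12, 0 and 0, with more higher than lower at 3 days in both. Over all 80 probe sets the counts were 29, 42, 37, 25 and 19.

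For 6 weeks against 1 and 2 weeks the floor of 100 gave 5. For the age questions, the response to fracture gave 0 with a floor of 100 and with log2(signal + 50). It gave 1 with median centring, then Ccng1 (-1.28) in place of Cdk7, and 1 with the filter at 200, again Ccng1 (-1.09). Older against young rats at 4 and 6 weeks gave 1 with log2(signal + 50) (Pcna, -1.34) and 9 with the filter, which also gave 8 for 1 week against 3 days and 1 for older against young rats over all times. The low signals of Cdc25a, Cdc7, Pola1, Cdk2 and Mcm3ap limit what could be detected for these genes. The same holds for Cdk18, which the authors reported as Absent on every array.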
